A study of Homo sapiens with 22 samples.

Results

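The major histocompatibility complex (MHC) on the short arm of human chromosome 6 was examined for chromatin accessibility in 2 multiple myeloma cell lines. The peak lists of all 22 ATAC-seq libraries were merged into 96160 union regions, and the MHC regions were the 301 of these that lie on chromosome 6 between 28.5 and 33.5 Mb (hg38). They were divided by the genes they lie at into 170 class I regions, which run up to the end of MICB at position 31511124, 54 class III regions, which run on to the end of NOTCH4 at position 32224067, and 77 class II regions beyond it. The last region outside the window on the low side (chr6:28489125-28490522, nearest to GPX6) and the first inside it (chr6:28542589-28544541, nearest to GPX5) were called in all 22 libraries, as were the last inside on the high side (chr6:33454060-33454856, nearest to ZBTB9) and the first outside it (chr6:33570800-33571776, nearest to BAK1).

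Both lines, KMS34 and KMS11, are established multiple myeloma lines labelled as bone marrow derived with the translocation t(4;14), which places the histone methyltransferase gene NSD2 under immunoglobulin control. Each of 11 groups held 2 libraries. KMS34 had a day 0 group without treatment and, at days 4 and 10, cells given NSD2LDD, a compound that degrades NSD2, or the DMSO vehicle. KMS11 had the same 5 groups and, at day 0 without treatment, a group with the genotype TKO in place of t(4;14); the labels do not spell TKO out. The labels call the 2 libraries of a group duplicates and do not say that they came from separate cultures, so the p-values measure the spread between these libraries, which may be technical.

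ATAC-seq inserts sequencing adapters into open chromatin, and a peak marks a stretch where insertions pile up. In the MHC, class I genes such as HLA-B and HLA-C encode the molecules that show peptides from inside the cell to cytotoxic T cells, with TAP1, TAP2 and the immunoproteasome subunits PSMB8 and PSMB9 supplying the peptides. Class II genes such as HLA-DRA and HLA-DPB1 encode molecules that show engulfed peptides to helper T cells on B cells and other professional presenting cells, and their promoters share an X box bound by RFX proteins and a Y box bound by NF-Y, on which the coactivator CIITA assembles. Plasma cells, the normal counterpart of myeloma, are known to lower CIITA and with it class II. Class III holds complement genes and the cytokine genes TNF, LTA and LTB.

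The promoter sequences of 6 presentation genes are printed because the starts of 4 of them (MICA, HLA-B, HLA-DPB1 and HLA-DQB1) differed between the lines past the threshold used below, while MICB, the close relative of MICA, and HLA-DRB1 serve for comparison. Each runs 5′ to 3′ on the strand of its gene from 250 bases before to 50 bases after the gene's start, comes from RefSeq on GRCh38.p14, and lies within a region called here. Capitals mark matches on either strand to 3 motifs: the interferon response element core GAANNGAAA, the X box core of 11 letters, which matches once, at HLA-DRB1, and the Y box ATTGG, which reads CCAAT on the other strand.
MICA promoter, chr6:31403345-31403644, plus strand: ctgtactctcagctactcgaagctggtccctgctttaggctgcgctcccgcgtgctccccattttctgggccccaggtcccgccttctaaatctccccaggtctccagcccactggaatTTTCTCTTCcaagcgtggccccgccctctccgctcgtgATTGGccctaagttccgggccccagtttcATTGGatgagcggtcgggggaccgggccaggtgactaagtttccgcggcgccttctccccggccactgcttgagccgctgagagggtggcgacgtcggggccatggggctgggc
MICB promoter, chr6:31497895-31498194, plus strand: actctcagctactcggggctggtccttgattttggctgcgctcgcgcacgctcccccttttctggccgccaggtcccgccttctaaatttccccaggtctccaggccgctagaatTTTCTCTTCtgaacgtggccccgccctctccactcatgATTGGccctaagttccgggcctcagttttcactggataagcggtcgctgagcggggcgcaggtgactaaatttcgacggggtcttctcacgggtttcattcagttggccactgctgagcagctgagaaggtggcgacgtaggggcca
HLA-B promoter, chr6:31357130-31357429, minus strand: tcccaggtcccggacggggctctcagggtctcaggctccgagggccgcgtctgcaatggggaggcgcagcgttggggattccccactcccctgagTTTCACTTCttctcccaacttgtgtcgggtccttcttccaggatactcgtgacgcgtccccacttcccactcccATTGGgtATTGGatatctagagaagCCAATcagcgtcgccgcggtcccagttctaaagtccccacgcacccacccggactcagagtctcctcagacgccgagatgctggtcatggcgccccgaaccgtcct
HLA-DPB1 promoter, chr6:33075740-33076039, plus strand: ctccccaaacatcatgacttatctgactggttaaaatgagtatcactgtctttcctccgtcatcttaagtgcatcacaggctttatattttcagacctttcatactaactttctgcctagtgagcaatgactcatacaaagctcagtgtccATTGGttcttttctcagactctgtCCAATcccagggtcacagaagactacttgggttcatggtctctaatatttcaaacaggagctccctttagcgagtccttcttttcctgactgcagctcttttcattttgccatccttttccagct
HLA-DQB1 promoter, chr6:32666608-32666907, minus strand: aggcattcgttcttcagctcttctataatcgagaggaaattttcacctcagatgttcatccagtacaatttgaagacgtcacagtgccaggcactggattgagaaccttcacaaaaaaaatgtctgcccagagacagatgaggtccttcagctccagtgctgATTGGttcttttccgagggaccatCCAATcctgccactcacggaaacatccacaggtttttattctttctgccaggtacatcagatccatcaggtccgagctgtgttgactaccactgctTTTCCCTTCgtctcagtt
HLA-DRB1 promoter, chr6:32589799-32590098, minus strand: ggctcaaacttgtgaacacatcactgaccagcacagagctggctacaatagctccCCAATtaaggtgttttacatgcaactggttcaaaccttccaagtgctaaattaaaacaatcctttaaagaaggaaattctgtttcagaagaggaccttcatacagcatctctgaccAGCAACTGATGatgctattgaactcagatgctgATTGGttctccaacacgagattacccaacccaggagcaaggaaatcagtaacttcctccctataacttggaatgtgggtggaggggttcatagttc
No 2 of the matches shown in capitals overlap. Of 22156 promoter entries of protein-coding genes, 6.63% held the interferon response element core, 34.6% the Y box and 0.0361%, which is 8 entries, the X box core. Among the 15 promoter entries of the class I presentation genes, 6 held the interferon response element core, at HLA-B, HLA-C, MICA, MICB, PSMB8 and TAP2. Among the 14 entries of the class II genes, 12 held the Y box and 2 the X box core, at HLA-DRB1 and HLA-DRB5. MICA and MICB thus both carry an interferon response element core and a Y box in nearly the same surroundings, and HLA-DRB1 carries the X box core upstream of its second Y box. The other motifs searched were TGACG, present in 27.9% of all entries, TGANTCA in 6.16% and GGGCGG in 56.3%; GGGCGG was found in 1 of the 14 class II entries. HLA-E and HLA-DRA had no entry in the table.

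The 301 regions amounted to 60.2 per Mb of the window, against 31.7 per Mb over all union regions. Their median width was 721 bp, with a range from 156 to 2446 bp. Of the MHC regions, 106 (35.2%) lay within 1 kb of an end of a protein-coding gene, against 14.2% of all union regions. In all 22 libraries 89 MHC regions (29.6%) were called, against 14.4% of all regions, and 34 MHC regions were called in a single library. By position, at gene ends 59.4% of MHC regions and 62.0% of all regions were called in every library, and away from gene ends 13.3% of MHC regions and 6.58% of all regions were. By class, 38.9% of class III, 31.2% of class II and 25.9% of class I regions were called in every library.

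The most fully covered region of class I was the shared start of TRIM39 and HCG17 (chr6:30325758-30327553), with 989 to 1796 bp covered and a median of 1548.5 bp. In class III it was the shared start of CSNK2B, a subunit of casein kinase, and GPANK1 (chr6:31664653-31666455), with 668 to 1683 bp covered and a median of 1128 bp. In class II it was the start of RGL2 (chr6:33297706-33300056), with 559 to 2066 bp covered and a median of 1447.5 bp, followed by VPS52 with HCG25 and by the shared start of TAP1 and PSMB9 (chr6:32852837-32854802), with 742 to 1966 bp. TAP1 and PSMB9 encode a peptide transporter subunit and an immunoproteasome subunit and are read from opposite strands. Their shared start was thus among the class II regions with the most covered bases, and it was called in all 22 libraries. None of these sites differed between the lines past the threshold used below.

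Of 172 protein-coding genes in the window, 89 carried covered bases within the gene or 1 kb of it in all 22 libraries and 46 carried none in any. Over all 19974 protein-coding genes these counts were 11271 and 3628. The longest stretch without a peak ran for 273 kb (chr6:29236460-29509415) over the olfactory receptor genes OR14J1, OR5V1, OR12D3, OR12D2, OR11A1, OR10C1 and OR2H1 and the receptor gene MAS1L. A further 194 kb (chr6:29017348-29211141) held 5 olfactory receptor genes, which are read in the nasal epithelium. In class II, stretches of 144 kb over TSBP1 and BTNL2, 116 kb over HLA-DRB5 and 84.8 kb over HLA-DQA2 and HLA-DQB2 had no peak, and in class III a stretch of 75.0 kb over the complement genes C4A and C4B and the steroid hydroxylase gene CYP21A2 had none. HLA-G, HLA-DOA, HLA-DOB and TNF, which encodes the cytokine tumour necrosis factor, also had no peak in the gene or within 1 kb, and HLA-DQA1 had 184 bp in 1 TKO library alone. A peak list does not tell a closed site from sequence that is missing from a line or that reads could not be placed in, and C4A and C4B are near-identical copies. HLA genes are polymorphic, and how reads were placed there was not tested. This limit also holds for the differences between the lines at these genes given below.

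The 22 lists held 24979 to 52518 peaks, with 34165 to 52518 in KMS34 and 24979 to 39002 in KMS11, and read depth is unknown because the lists carry no read counts. The MHC regions covered 51.0 to 164 kb per library, and 111 to 208 of the 301 were called in a library. The plasma cell markers checked were covered in every library at 8 of 9 genes, SDC1 and IRF4 among them, with a summed 14065 to 25393 bp in KMS34 and 5461 to 15554 bp in KMS11. MS4A1 of B cells, CD3D and NKG7 of T and NK cells, CD14 and LYZ of myeloid cells, and GATA1 and HBB of erythroid cells were at 0 in all libraries. Pairs of libraries from the 2 lines shared less MHC sequence at the median than pairs from 1 line. The covered bases in common, as a share of those covered in either, had a median of 0.543 over the 120 pairs across lines, 0.644 over the 100 pairs of different groups within a line and 0.614 over the 11 pairs within a group. These pairs share libraries, so the values are given without a test.

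**Figure D1:**
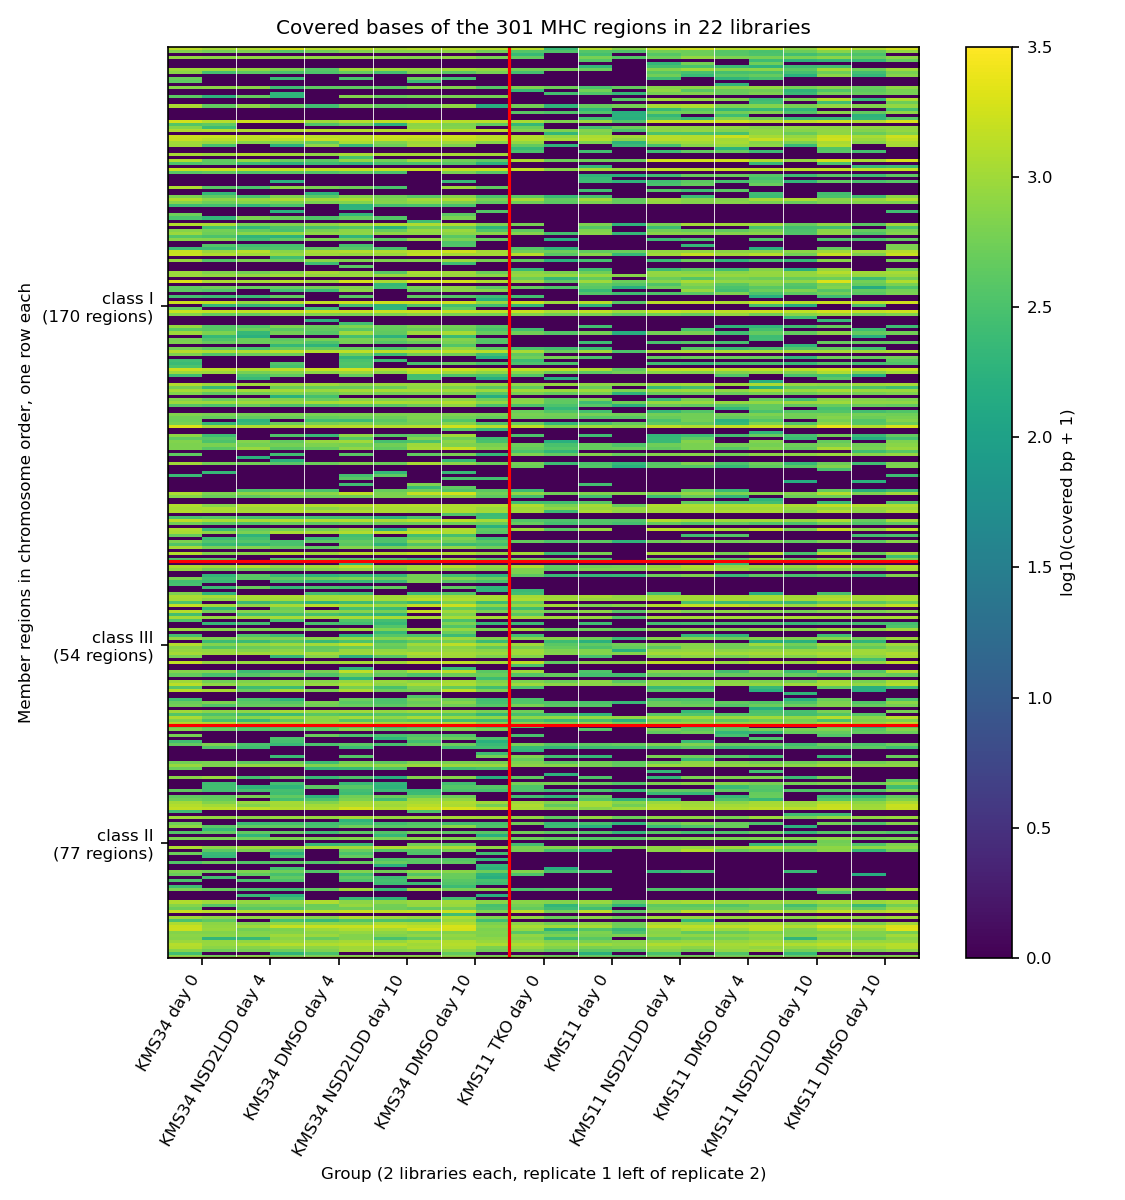
Covered bases (log10 of covered bp + 1, colour) of the 301 MHC regions, as rows in chromosome order, in the 22 libraries, as columns with KMS34 left of KMS11. Red lines divide the lines and the 3 classes. Blocks of dark rows in KMS11 and, in the upper part of class I, in KMS34 are regions without a peak in that line; library 2 of untreated KMS11, the shortest list, has the most dark rows.

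The plot of covered bases by region and library shows blocks of rows that change colour at the divide between the lines beside many that do not. The lines were compared by setting the 6 KMS34 libraries without NSD2LDD (day 0 and DMSO) against the 6 such KMS11 libraries. A region was measured by its bases inside a library's peaks, and limma was fitted to log2(covered bp + 100) of the 69191 union regions called in at least 2 libraries, 267 of them in the MHC, with an adjusted p (Benjamini-Hochberg over all of them) under 0.05 as the threshold. The 34 MHC regions called in 1 library were not tested.

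KMS34 differed from KMS11 at 75 of the 267 tested MHC regions, with 44 higher and 31 lower in KMS34. That is 28.1% of them, against 34.2% of all tested regions, where 20% were higher and 14.2% lower. The median difference on the log2 scale was 0.10 over the MHC regions and 0.14 over all tested regions. Class I had 33 higher and 27 lower of 152 tested, class III 5 higher and 1 lower of 47, and class II 6 higher and 3 lower of 68. By position, 13 of 97 MHC regions at gene ends differed, or 13.4%, against 25.8% of all tested regions at gene ends, and 62 of 170 farther away did, or 36.5%, against 36.2%. Away from gene ends the share was 47.3% in class I, 17.6% in class III and 14.6% in class II. With each list shortened to the length of the shortest, 24 regions were higher and 22 lower, and with peak number as a covariate 25 were higher and 31 lower. Without scaling of the lists the median over all tested regions was 0.32 and 53 MHC regions were higher and 26 lower.

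**Figure D2:**
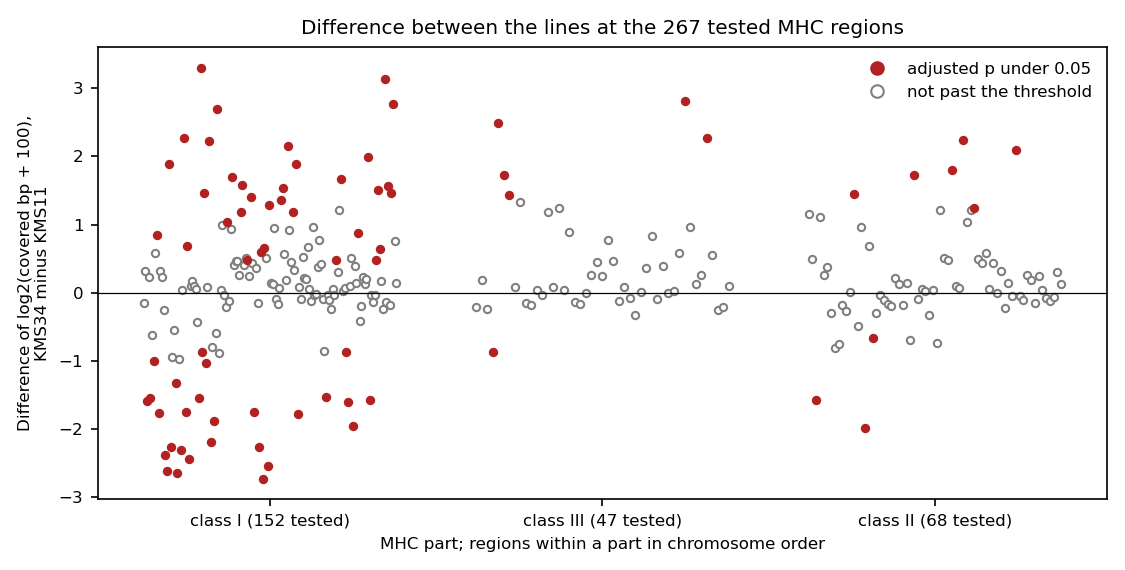
Difference between the lines, KMS34 minus KMS11, in log2(covered bp + 100) for the 267 tested MHC regions, in chromosome order within class I, class III and class II. Filled points passed the threshold (33 higher and 27 lower in class I, 5 and 1 in class III, 6 and 3 in class II); where all libraries of a line had no covered base, the height of a point depends on the 100 bp added and is no measure of a fold.

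The plot of the difference along the 3 classes shows 14 of the 31 lower regions at the left of class I. Between the window's start and ZNF311 (chr6:28542589-28982812) 14 of 36 tested regions were lower and 5 higher in KMS34, and from there to MICB 13 of 116 were lower and 28 higher; this division was chosen after the values were seen. In 20 of the 44 regions higher in KMS34 and 7 of the 31 lower ones, the 6 KMS34 and 6 KMS11 values did not overlap, or 45.5% and 22.6%, against 40.3% and 35.1% of all tested regions called higher and lower. Of all 267 tested MHC regions, called or not, 29 did not overlap, or 10.9%, against 13.6% of all tested regions. Of the 44, 21 had no peak in any of the 12 KMS11 libraries, and of the 31, 21 had none in any of the 10 KMS34 libraries. The matching shares of all regions called higher or lower were not counted, so these counts do not set the MHC apart. Past the threshold or not, 45 of the 267 tested MHC regions had peaks in KMS34 libraries only and 33 in KMS11 libraries only. Over all 69191 tested regions these counts were 19456 and 9541. Among the 89 MHC regions called in all 22 libraries, 6 differed between the lines, or 6.74%, against 19.9% of the 13884 union regions called in all 22.

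The clearest class I difference at a gene lay at MICA, which encodes a stress-induced ligand of the natural killer cell receptor NKG2D. The region over the MICA promoter (chr6:31402555-31404059) had 392, 1078 and 1204 bp covered in KMS34 as lowest, median and highest of 6 libraries, and 0 bp in all 6 KMS11 libraries (limma adjusted p = 2.6e-08). It was called in all 10 KMS34 libraries, with 392 to 1479 bp, and in none of the 12 KMS11 libraries, TKO included, so the lines did not overlap. MICB, a ligand of the same receptor, showed no such difference at its start (chr6:31497298-31498246): 0 to 792 bp in 10 KMS34 libraries, 9 of them called, and 0 to 763 bp in 12 KMS11 libraries, 11 of them called (log2 difference 0.15, SE 0.34, limma adjusted p = 0.77). A region 20613 bp from MICB (chr6:31473707-31474903) was again a KMS34 site, with 434, 649.5 and 1059 bp as lowest, median and highest of 6 KMS34 libraries, and 0 bp in all 6 KMS11 libraries (limma adjusted p = 3.3e-08). The MICA gene as a whole was covered in KMS11 outside its promoter, with 0 to 1249 bp in the 6 KMS11 libraries and 824 to 2384 bp in the 6 KMS34 libraries.

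HLA-B differed between the lines and HLA-C did not pass the threshold. The HLA-B start (chr6:31356231-31357717) had 1064, 1216.5 and 1437 bp in KMS34 and 353, 751 and 1054 bp in KMS11, as lowest, median and highest of 6 libraries (log2 difference 0.64, SE 0.10, limma adjusted p = 0.00011). The values did not overlap, although the spread within KMS11 followed the day: at day 0 TKO cells had 367 and 335 bp and untreated KMS11 cells 365 and 353 bp, while the 8 later KMS11 libraries had 489 to 1242 bp. At day 0 KMS34 had 1437 and 1101 bp, and among DMSO libraries KMS34 had 1064 to 1351 bp and KMS11 489 to 1054 bp. With each list shortened to the length of the shortest, HLA-B was no longer called (log2 difference 0.03, limma adjusted p = 0.96).

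HLA-C had 1025 to 1252 bp at its start in 10 KMS34 libraries and 250 to 1210 bp in 12 KMS11 libraries, with medians of 1118 and 1075.5 bp (limma adjusted p = 0.86). The starts of HLA-E, the ligand of the NKG2A receptor, TAP1 with PSMB9, TAP2, PSMB8 and TAPBP, which encodes tapasin, were called in all 22 libraries, and that of HLA-F in 21. None of these 6 starts passed the threshold for the lines; TAP2 for example had 678 to 1204 bp in KMS34 and 682 to 1169 bp in KMS11.

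The other leading class I differences lay away from the presentation genes. A region 34809 bp from TRIM27 (chr6:28958165-28959424) had the smallest p of the MHC: 831, 1054.5 and 1112 bp as lowest, median and highest of the 6 KMS34 libraries and 0 bp in all 6 KMS11 libraries (limma adjusted p = 4.5e-09). The olfactory receptor gene OR2I1 (chr6:29552695-29553884) had 399 to 1162 bp in the 6 KMS34 libraries and 0 bp in the 6 KMS11 libraries. Regions 54044 bp from TRIM27 (chr6:28848565-28849351) and 35641 bp from OR2J2 (chr6:29211142-29211763) also had 347 to 651 and 355 to 621 bp in the 6 KMS34 libraries and 0 bp in the 6 KMS11 libraries. These sites were thus present in every untreated or DMSO KMS34 library and absent from the matching KMS11 lists. With NSD2LDD and TKO libraries included, the OR2I1 and OR2J2 sites were each called in 9 of 10 KMS34 libraries. The region 54044 bp from TRIM27 was called in 8 of 10 KMS34 libraries and in 1 of 12 KMS11 libraries, with 222 bp.

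All 10 leading regions that were lower in KMS34 belonged to class I, and in each of them the 6 KMS34 libraries had 0 bp. Of the 10, 5 lay between SCAND3 and TRIM27 at distances of 131504 and 142416 bp from SCAND3 and of 85531, 99947 and 112750 bp from TRIM27, a gene for a ubiquitin ligase of the tripartite motif family, and another lay 16967 bp from TRIM27. The region 99947 bp from TRIM27 (chr6:28802646-28803464) was called in all 12 KMS11 libraries, with 162 to 814 bp, and in no KMS34 library (limma adjusted p = 3.6e-08). It was the single one of the 301 MHC regions with that pattern, against 1691 of all 96160 union regions. The reverse, a call in all 10 KMS34 and no KMS11 libraries, held at 4 MHC regions, against 2423 of all union regions. The start of TRIM31, another ubiquitin ligase of that family (chr6:30112912-30113856), had 0 bp in the 6 KMS34 libraries and 361, 461 and 670 bp as lowest, median and highest of the 6 KMS11 libraries (limma adjusted p = 1.8e-06). A region in TRIM40 (chr6:30146872-30147661) had 0 bp in the 6 KMS34 libraries and 262, 378 and 652 bp in the 6 KMS11 libraries. The last 2 lay 10494 bp from RNF39, with 0 to 606 bp in the 6 KMS11 libraries, and 60348 bp from OR2J2 at the noncoding gene LINC03003, with 173 to 499 bp.

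In class III, the promoter region of LTA, the gene of the cytokine lymphotoxin alpha (chr6:31572088-31572776), had 277, 587.5 and 689 bp as lowest, median and highest of the 6 KMS34 libraries and 0 bp in all 6 KMS11 libraries (limma adjusted p = 7.5e-08). It was called in all 10 KMS34 and in none of the 12 KMS11 libraries. A neighbouring region in LTB, the gene of its membrane-bound partner (chr6:31580746-31581399), was called in 9 KMS34 libraries and no KMS11 library, and one in LST1 (chr6:31587871-31588580) in 8 KMS34 libraries and no KMS11 library (limma adjusted p = 0.00029 and 0.017; 0.88 at LTB with lists of equal length, and 0.054 at LST1 without untreated KMS34 library 2). So these 3 neighbouring genes had peaks at these sites in KMS34 lists and in no KMS11 list. LTA nevertheless had covered bases in the gene or within 1 kb of it in all 22 libraries (log2 difference 0.63, limma adjusted p = 0.018). Counted over the gene and 1 kb on each side, LTB had 205 to 387 bp in the 6 KMS34 libraries and 0 bp in the 6 KMS11 libraries (limma adjusted p = 0.0012), and this difference was not called with lists of equal length. A region inside TNXB, the tenascin X gene (chr6:32086422-32087996), had 617, 1111.5 and 1431 bp in the 6 KMS34 libraries and 0, 0 and 163 bp in the 6 KMS11 libraries (log2 difference 2.81, SE 0.32, limma adjusted p = 4.5e-06). At the PPT2 start (chr6:32153902-32155190), a thioesterase gene, the 6 KMS34 libraries had 602, 916 and 999 bp and the 6 KMS11 libraries 0, 0 and 608 bp (log2 difference 2.27, SE 0.48, limma adjusted p = 0.0017). TNXB did not overlap between the lines, and PPT2 overlapped at 1 KMS11 library.

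Among class II starts the lines differed in both directions. The HLA-DPB1 start (chr6:33075503-33076473), which also lies within the overlapping gene HLA-DPA1, had 358, 589 and 753 bp in the 6 KMS34 libraries and 0, 0 and 286 bp in the 6 KMS11 libraries (log2 difference 2.24, SE 0.34, limma adjusted p = 9.5e-05). TKO cells had 689 and 299 bp there, above the other KMS11 libraries, which reached at most 286 bp. The HLA-DQB1 start (chr6:32666298-32667087) went the other way: 0, 121 and 281 bp as lowest, median and highest in the 6 KMS34 libraries and 378, 560.5 and 769 bp in the 6 KMS11 libraries (log2 difference -1.99, SE 0.46, limma adjusted p = 0.0034). Over all libraries KMS34 had 0 to 283 bp and KMS11 378 to 782 bp, so HLA-DQB1 did not overlap. The start of HLA-DRB1, whose promoter carries the X box core, was called in 3 of 10 KMS34 and 9 of 12 KMS11 libraries and did not pass the threshold (log2 difference -0.75, SE 0.57, limma adjusted p = 0.34). HLA-DRA, the chain that pairs with HLA-DRB1, was called at its start (chr6:32439494-32440196) in all 22 libraries, with 229 to 646 bp in KMS34 and 292 to 658 bp in KMS11 (limma adjusted p = 0.18). HLA-DMA, a peptide-exchange factor, was called in all 22 libraries and its partner HLA-DMB in 20, as was the start of BRD2, a bromodomain gene, in 22.

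**Figure D3:**
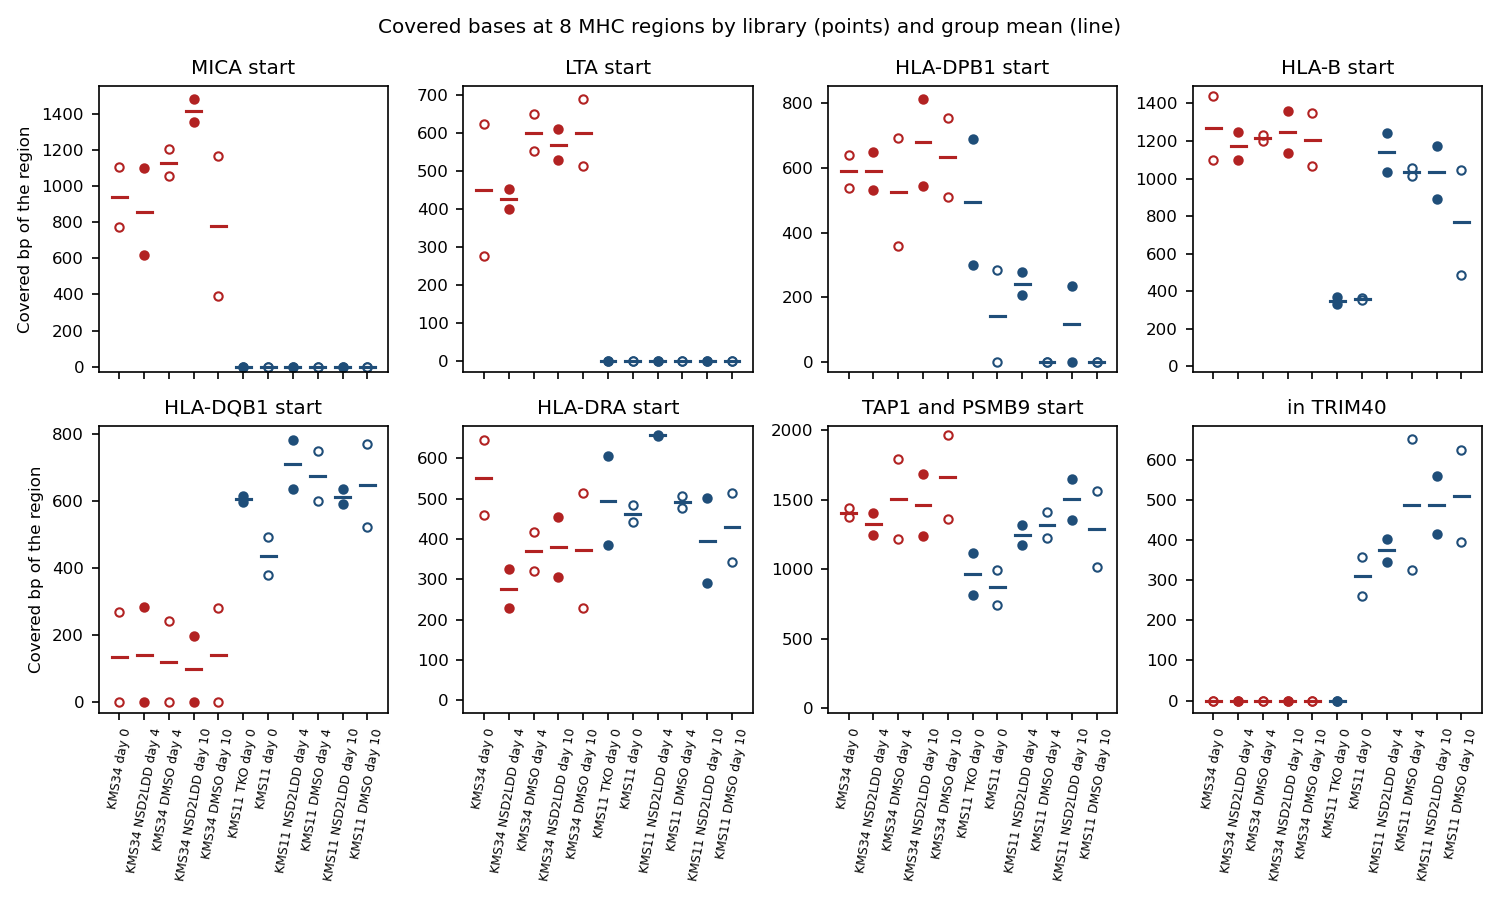
Covered bp of 8 MHC regions in each library (points) with the group mean (bar), KMS34 in red and KMS11 in blue, NSD2LDD and TKO filled and day 0 and DMSO open. The MICA and LTA regions are at 0 in all 12 KMS11 libraries, the TRIM40 region in all 10 KMS34 and both TKO libraries, HLA-DQB1 lies at 283 bp or less in KMS34 and at 378 bp or more in KMS11, and the HLA-B start has 335 to 367 bp in the 4 day 0 KMS11 libraries.

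The plot of 8 regions by library sets these patterns side by side with HLA-DRA and TAP1 with PSMB9, which overlapped between the lines. Counted per gene (body and 1 kb on each side), 22 of the 124 tested MHC genes were higher and 2 lower in KMS34, or 19.4%, against 33.7% of all tested genes (21% higher, 12.7% lower). The 10 genes that rose most were TNXB, OR2I1, HLA-DPB1, PPT2, HLA-DPA1, LOC105375012, POU5F1, DDR1, LST1 and LTB, and the 2 lower ones were MUC22, a mucin gene, with 0 bp in all 6 KMS34 libraries and 0 to 669 bp in the 6 KMS11 libraries, and MDC1, a DNA damage mediator, with 612 to 690 bp and 545 to 1416 bp. POU5F1, a pluripotency factor gene, had 428 to 810 bp in the 6 KMS34 libraries and 0 to 284 bp in the 6 KMS11 libraries (log2 difference 1.41, SE 0.23, limma adjusted p = 0.00024). HLA-DPA1 and HLA-DPB1 share covered bases, so they are not separate measurements. The division changed with the processing: quantile normalization gave 13 genes higher and 12 lower, lists of equal length 8 higher and 5 lower, and peak number as a covariate 13 higher and 4 lower.

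Over all tested genes, 21% were higher and 12.7% lower in KMS34, with a median log2 difference of 0.06. By gene list, 3 of 12 tested class I presentation genes were higher in KMS34, HLA-B and MICA among them, and none lower, with a median of 0.16. Of 7 tested class II genes, 2 were higher (HLA-DPA1 and HLA-DPB1) and none lower, with a median of -0.27. Of 7 tested class III cytokine, complement and heat shock genes, 4 were higher (LTA, LTB, LST1 and NCR3) and none lower, with a median of 0.63. LST1 and NCR3 had the same log2 difference with peaks of −log10 q of at least 5 (0.66) and with lists of equal length (0.26). They may therefore not be separate measurements. Of 16 chromatin and transcription genes of the MHC, 3 were higher (POU5F1, ATF6B and ZNF311) and none lower, with a median of -0.01. Of the 12 genes higher in these lists, HLA-DPA1, HLA-DPB1 and POU5F1 stayed past the threshold under all 32 alternatives, and MICA, LTA, NCR3 and ATF6B lost it in 7, 2, 11 and 14 of the 22 fits that each left out a library. Outside the MHC, the 12 class I and II regulators were covered in all 22 libraries, CIITA and NLRC5 included; 1 was higher in KMS34, NFYC, a subunit of NF-Y, and 3 were lower, among them IRF2, an interferon regulatory factor, and RFX5, a subunit of the X box factor RFX. Of 16 partners in presentation, JAK1 was higher, and CD74, the invariant chain, and CANX, a chaperone, were lower in KMS34. Of the marker lists, 5 of 9 plasma cell genes were higher and 1 lower in KMS34, PAX5 of B cells, SPI1 of myeloid cells and COL1A2 of stromal cells were higher and ITGAM of myeloid cells lower, no T or NK cell marker passed, and KLF1 of erythroid cells had 0 bp in KMS34 and 411 to 694 bp in KMS11; their part in the MHC differences was not tested.

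NSD2LDD was compared with DMSO over days 4 and 10 together, 4 libraries against 4 in each line. In KMS11 no MHC region passed the threshold by limma, against 0.0694% of all tested regions (0.0376% higher, 0.0318% lower), and 13 of the 267 (4.87%) had an unadjusted p under 0.05, against 4.80% of all tested regions. In KMS34 2 MHC regions were lower and none higher, or 0.749%, against 0.986% of all tested regions (0.642% higher, 0.344% lower), and 13 (4.87%) had an unadjusted p under 0.05, against 9.88%. The difference between the lines in the NSD2LDD effect passed at no MHC region by limma, against 0.00578% of all tested regions (0.00289% in each direction), with 11 (4.12%) at an unadjusted p under 0.05, against 5.99%. The median log2 difference over the MHC regions was -0.01 in KMS11 and 0.00 in KMS34, beside -0.01 and 0.02 over all tested regions. No region at the start of a presentation gene passed the threshold under NSD2LDD.

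Both called regions in KMS34 were small class I sites. The region 32732 bp from HLA-C (chr6:31304652-31304996) had 0 bp in all 4 NSD2LDD libraries, and among DMSO libraries 0 bp at day 4 and 343 and 249 bp at day 10 (limma adjusted p = 0.044). The region 37565 bp from IER3, at the noncoding gene HCG20 (chr6:30781913-30782311), had 0 bp in all 4 NSD2LDD libraries, and among DMSO libraries 0 bp at day 4 and 399 and 199 bp at day 10 (limma adjusted p = 0.048). Neither was covered in any other library of the study, and the groups overlapped at 0 bp. Leaving out either DMSO library of day 10 put both regions below the filter of 2 libraries. In the other 20 fits that left out a library, the call of the HLA-C-side region was lost in 18 and that of the IER3-side region in 19, and both calls were lost when the fit held only KMS34 libraries.

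The KMS11 regions nearest to the threshold, named after their values were seen, included one inside POU5F1 (chr6:31164711-31165613). It had 257 and 477 bp at day 4 and 516 and 514 bp at day 10 with NSD2LDD, and 208 and 0 bp at day 4 and 0 and 0 bp at day 10 with DMSO (log2 difference 1.99, SE 0.43, limma adjusted p = 0.12), and the difference was gone with lists of equal length. KMS34 had 437 to 660 bp there with NSD2LDD and 428 to 810 bp with DMSO. A region 25912 bp from PSMB9 (chr6:32885631-32885895) was called in both KMS11 NSD2LDD libraries of day 10, with 263 and 264 bp, and in no other library (limma adjusted p = 0.14). At the gene level no MHC gene passed in either line by limma, against 0% of all tested genes, with 4 genes (3.23%) at an unadjusted p under 0.05 in KMS11, against 3.39% of all tested genes, and 3 (2.42%) in KMS34, against 5.92%. For the difference of effects the count was 1 (0.806%), against 3.46%.

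The presentation genes gave overlapping values with and without the compound. HLA-B had 889 to 1242 bp in 4 NSD2LDD libraries and 489 to 1054 bp in 4 DMSO libraries of KMS11 (log2 difference 0.25), and in KMS34 1097 to 1360 bp and 1064 to 1351 bp (log2 difference 0.02). HLA-DPB1 was counted over the gene and 1 kb on each side, not at its start alone. In KMS11 it had 208, 277, 236 and 0 bp with NSD2LDD and 0, 0, 157 and 0 bp with DMSO (log2 difference 0.63). In KMS34 it had 544 to 1173 bp and 358 to 1247 bp (log2 difference 0.19). TAP1 had log2 differences of 0.06 in KMS11 and -0.03 in KMS34. None of these genes passed the threshold, which does not show that they were equal.

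The share of a library's covered bases that lay in the MHC gave a single value per library. In KMS11 it was 0.517% ± 0.017 with NSD2LDD and 0.536% ± 0.023 with DMSO (SD, n = 4 each; two-sided exact permutation p = 0.23, adjusted 0.46 over 12 share tests). In KMS34 it was 0.475% ± 0.025 with NSD2LDD and 0.514% ± 0.032 with DMSO (SD, n = 4 each; exact permutation p = 0.086, adjusted 0.27). The class II share was 0.125% ± 0.0045 with NSD2LDD and 0.133% ± 0.0047 with DMSO in KMS11 (SD, n = 4 each; exact permutation p = 0.057, adjusted 0.27), and 0.118% ± 0.0070 and 0.127% ± 0.0051 in KMS34 (exact permutation p = 0.11, adjusted 0.27). Between the lines it was 0.512% ± 0.026 for the whole MHC in KMS34 and 0.507% ± 0.049 in KMS11 (SD, n = 6 each; exact permutation p = 0.81, adjusted 0.89). None of the 12 share tests passed; with 4 libraries against 4 the smallest p is 0.029, and with 6 against 6 it is 0.0022.

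**Figure D4:**
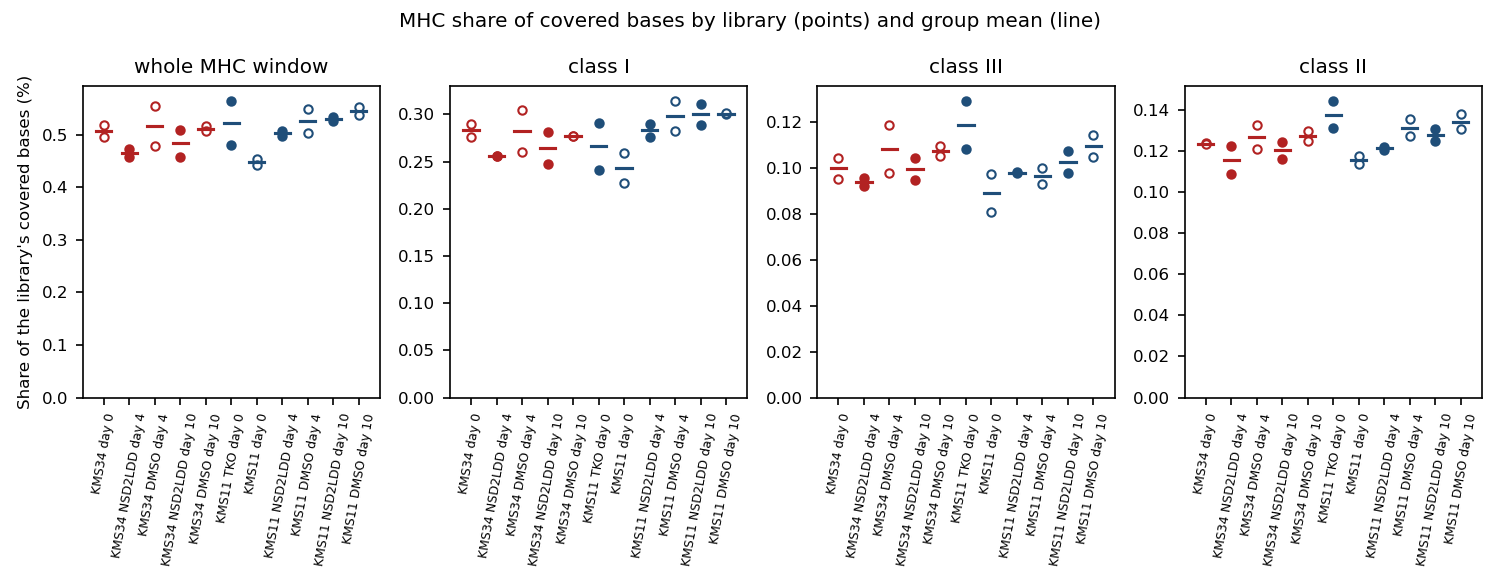
Share of each library's covered bases (in %) in the whole MHC window and in class I, class III and class II, by group, with libraries as points and the group mean as a bar; KMS34 in red and KMS11 in blue, NSD2LDD and TKO filled and day 0 and DMSO open. The whole window holds 0.442% to 0.565% of covered bases, and the 2 TKO libraries (0.565% and 0.480%) lie above the 2 untreated KMS11 libraries (0.454% and 0.442%).

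As the plot of shares shows, the whole window kept to 0.442% to 0.565% of covered bases in all 22 libraries. TKO cells had 0.565% and 0.480%, and untreated KMS11 cells at day 0 had 0.454% and 0.442%; 2 libraries against 2 cannot give an exact permutation p under 0.33, so this share was not tested. Class III showed the same order, with 0.129% and 0.108% in TKO cells and 0.0807% and 0.0975% in untreated KMS11 cells. So did class II, with 0.145% and 0.131% in TKO cells and 0.114% and 0.118% in untreated KMS11 cells. In class I the values overlapped, with 0.291% and 0.241% in TKO cells and 0.259% and 0.227% in untreated KMS11 cells.

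TKO cells differed from untreated day 0 KMS11 cells at 7 of 267 tested MHC regions, 3 higher and 4 lower. That is 2.62%, against 4.07% of all tested regions (0.967% higher, 3.1% lower), and 25 MHC regions (9.36%) had an unadjusted p under 0.05, against 12% of all tested regions. The median log2 difference was -0.11 over the MHC regions and -0.14 over all tested regions. The untreated day 0 KMS11 libraries also serve in the comparison of the lines, so the 2 comparisons share controls. Without untreated KMS11 library 1, 19 regions passed, and with day 0 and DMSO KMS11 libraries together as the control, 12 did. Without scaling, where the median over all tested regions was 0.00, 1 was higher and 4 lower, with lists of equal length 6 were higher and 4 lower, and with peak number as a covariate 5 and 4.

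All 4 lower regions lay in class I and had 0 bp in both TKO libraries. The TRIM40 region had 0 and 0 bp in TKO cells and 359 and 262 bp in untreated KMS11 cells (limma adjusted p = 0.0014). The TRIM31 start had 0 and 0 bp in TKO cells and 450 and 361 bp in untreated KMS11 cells (limma adjusted p = 0.0075; 0.067 without TKO library 1). These 2 neighbouring genes were covered in all 8 NSD2LDD and DMSO libraries of KMS11, TRIM40 with 326 to 652 bp and TRIM31 with 345 to 709 bp. The region 85531 bp from TRIM27 (chr6:28817114-28817828) had 0 and 0 bp in TKO cells and 276 and 158 bp in untreated KMS11 cells (limma adjusted p = 0.0075; 0.075 without TKO library 1). The LINC03003 region 60348 bp from OR2J2 (chr6:29235859-29236459) had 0 and 0 bp in TKO cells and 197 and 173 bp in untreated KMS11 cells (limma adjusted p = 0.013; 0.11 without TKO library 1 and 0.088 without untreated KMS11 library 2). The last 2 were covered in those 8 libraries as well, and both calls were also lost with peaks of −log10 q of at least 5 and with 300 bp added in place of 100. KMS34 had 0 bp at 3 of them in all 10 libraries and 218 bp in 1 library at TRIM31.

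The 3 higher regions lay in class I and class III. The shared start of PRR3 and GNL1 (chr6:30555916-30557721), GNL1 being a GTPase gene, had 1467 and 1419 bp in TKO cells and 1168 and 449 bp in untreated KMS11 cells (log2 difference 0.75, SE 0.18, limma adjusted p = 0.027). The VWA7 start (chr6:31776656-31777775) had 726 and 726 bp in TKO cells and 546 and 253 bp in untreated KMS11 cells (log2 difference 0.65, SE 0.17, limma adjusted p = 0.049). At both starts the TKO values lay among those of the other KMS11 libraries, and untreated library 2, the shortest list, was the low one. Without it the log2 differences were 0.34 at PRR3 (limma adjusted p = 0.19) and 0.41 at VWA7 (limma adjusted p = 0.34), and without TKO library 2 they were 0.62 (adjusted p = 0.21) and 0.50 (adjusted p = 0.33). The VWA7 call was lost under 24 of 34 alternatives in all, 17 of them leaving out a library, and the PRR3 call under 5. The region 1624 bp from MUCL3, a mucin-like gene (chr6:30955507-30956184), had 320 and 198 bp in TKO cells and 0 and 0 bp in untreated KMS11 cells (limma adjusted p = 0.0053; 0.72 with peaks of −log10 q of at least 5 and 0.066 with 300 bp added in place of 100). The only other libraries covered there were the KMS11 DMSO libraries of day 10, with 263 and 394 bp.

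**Figure D5:**
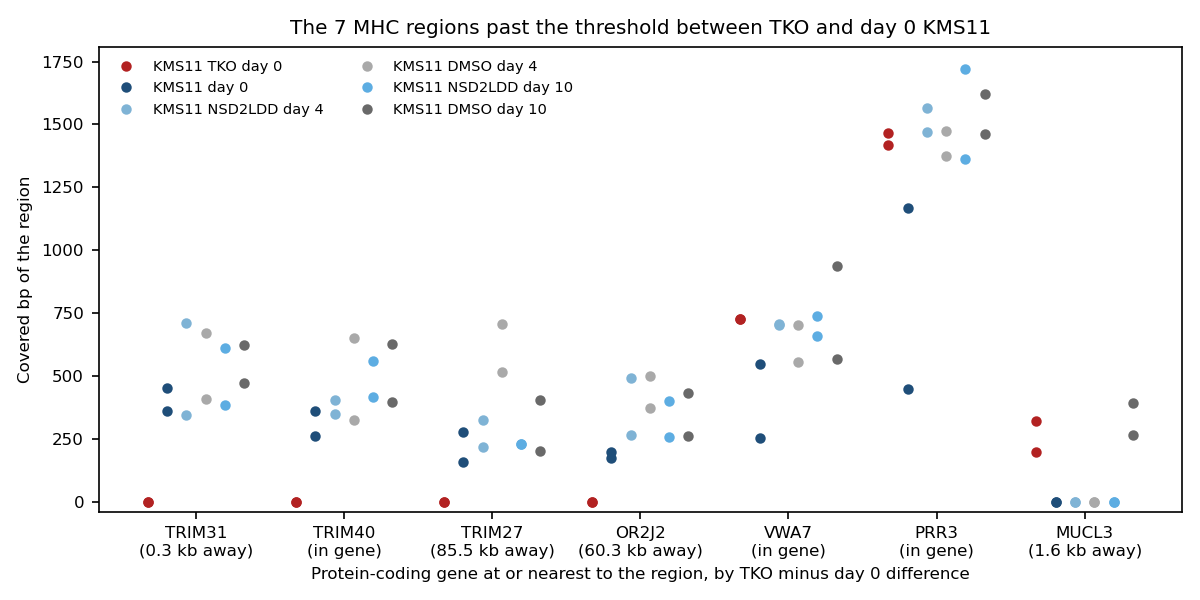
Covered bp of the 7 MHC regions past the threshold between TKO and untreated day 0 KMS11, in each KMS11 library (points, coloured by group), ordered by the TKO minus day 0 difference. TKO libraries are at 0 bp at the 4 regions on the left, where all other KMS11 libraries are covered with 158 to 709 bp, and lie within the range of the other KMS11 groups at VWA7 and PRR3.

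In the plot of the 7 regions, TKO stands apart from every other KMS11 group at the 4 regions on the left and not at the 3 on the right. Per gene, 2 MHC genes were higher in TKO cells, PRR3 (log2 difference 0.66) and VWA7 (0.73), or 1.61%, against 4.31% of all tested genes (1.06% higher, 3.25% lower). The PRR3 gene call was lost under 24 of 32 alternatives, 19 of them leaving out a library, and the VWA7 gene call under 6, among them the fits without untreated KMS11 library 2 and without either TKO library. No class I presentation, class II or class III cytokine gene passed in this comparison. HLA-B had 367 and 335 bp in TKO cells and 365 and 353 bp in untreated KMS11 cells, and HLA-DPA1 had 689 and 455 bp in TKO cells and 286 and 0 bp in untreated KMS11 cells (log2 difference 1.15, limma adjusted p = 0.15).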

How the data were processed

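Chromatin accessibility was measured by ATAC-seq in 22 libraries of 2 cell lines, 2 per group in 11 groups. The deposited files were narrowPeak lists on hg38, 1 per library, and fastp, BWA, SAMtools, Picard, MACS3 and deepTools are named without versions in the submitters' processing notes. In the narrowPeak layout each deposited peak carries, as the authors' peak caller gave them, a score, a fold enrichment over background, a −log10 p-value and a −log10 q-value; the lowest deposited −log10 q was 2.00. Read counts, and so depth, were not given in the sources used here.

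All peaks were merged (touching intervals joined) into 96160 regions, and covered bp per region and library were counted. limma 3.58.1 in R 4.3.3, with trend and robust moderation, was fitted to 11 group means over all 22 libraries on log2(covered bp + 100), less each library's median over the 13884 regions called in every library. Regions called in at least 2 libraries (69191) and protein-coding genes with 1 kb on each side (15856 of 19974 tested, log2(covered bp + 200)) were tested, with Benjamini-Hochberg adjustment over each whole table and a threshold of 0.05. The scale understates changes of narrow regions. Shares were compared by two-sided exact permutation tests over 70 or 924 relabellings, with values permuted across days. Genes came from RefSeq (GRCh38.p14, the build of hg38); 154 of 172 MHC genes had a promoter entry.

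The members and gene lists were chosen with earlier results of these data known. Named were, per comparison, up to 10 regions and 10 genes with the largest rises and falls among those past the threshold, the HLA, presentation and cytokine genes, the called genes of each list and the most fully covered region of each class. Alternatives were the peaks used, list length, scaling, pseudocount, filter, moderation, samples in the fit, gene window, list length as a covariate, replicate number as a block, and leaving out each library. The results of some genes of these lists are not reported here.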

Additional observations from a re-analysis of the deposited data

Results flagged for a closer look

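Of 24 sets of 4 or more libraries checked, 1 had a library far from the others, and chance marks about 1 in 20 such sets. In the class III share of covered bases, KMS11 NSD2LDD library 1 of day 10 had 0.107%, while the other 3 KMS11 NSD2LDD libraries had 0.0976% to 0.0984%. No MHC region or gene passed the test of a difference between the lines in the NSD2LDD effect.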

How the results depend on the processing

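The counts of MHC regions and genes past the threshold moved most where they were small. For NSD2LDD in KMS11, 0 regions became 1 with lists of equal length and 2 with no scaling, with quantile normalization, with the smaller pseudocount and with limma without trend and robust moderation. For NSD2LDD in KMS34, 2 regions became 1 with lists of equal length and 0 with the larger pseudocount, with filters of at least 1 or at least 4 libraries and with KMS34 libraries alone, and leaving out a library gave 0 to 2. For TKO against untreated KMS11, 7 regions became 3 with the larger pseudocount and 12 with day 0 and DMSO KMS11 as the control, and leaving out a library gave 6 to 19, 19 being the count without untreated KMS11 library 1. The 2 TKO genes became 0 with no scaling or the larger pseudocount, 1 without trend and robust moderation, and 4 with quantile normalization, with peak number as a covariate or with a window of 5 kb; leaving out a library gave 0 (without untreated KMS11 library 2) to 8 (without its library 1). For KMS34 against KMS11, 75 regions became 46 with lists of equal length and 66 to 85 on leaving out a library, and 24 genes became 13 with lists of equal length and 18 to 28 on leaving out a library. The other alternatives kept these counts within 1.5 times. The causes of these changes were not tested.

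Replicate numbers share only a number: the correlation of same-numbered deviations was -0.029 to 0.21. With replicate number as a block, the count was 0 regions for NSD2LDD in KMS34 and 1 gene for TKO, and no other count moved by over 1.5 times.

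Of 25 regions named between the lines, 19 stayed past the threshold under every alternative, and of the 24 called genes 6 did. With lists of equal length the log2 difference turned to -0.015 at LTB and -0.076 at WDR46 between the lines and to -0.0024 at the POU5F1 region for NSD2LDD in KMS11. Of the 7 TKO regions, TRIM40 stayed past it under every alternative. In shares, the class I difference between the lines turned to 0.0071 percentage points with peaks of −log10 q of at least 5 and 0.022 with lists of equal length, and that of NSD2LDD in KMS11 to 0.0068 with lists of equal length. The MHC share difference between the lines was -0.0076 to 0.015 percentage points on leaving out a library, and turned negative without untreated KMS11 library 1 (-0.0052) or 2 (-0.0076) or KMS34 DMSO library 1 of day 4 (-0.0034). On leaving out a library, the class I share difference between the lines was -0.011 to 0.0065, the class II one -0.0040 to 0.00080, and the class III one of NSD2LDD in KMS11 -0.0062 to 0.00098. The MHC one was -0.030 to -0.013 for NSD2LDD in KMS11, -0.052 to -0.026 for NSD2LDD in KMS34 and 0.032 to 0.12 for TKO. Depth is unknown, so a region without a peak may have been missed in a short list.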
